A study of Mus musculus with 34 samples.

Results

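Ribosome biogenesis genes and Myc were followed across 6 groups of mouse CD4 T cells. The set held 43 genes: Myc and 42 genes of the nucleolar machinery that makes ribosomes, chosen by name from the 27179 gene identifiers of each count table. The choice was made with earlier results of these data known. All 43 had counts in every library and all 43 passed the filter on low counts, among 11357 genes that did. Ribosomes are assembled in the nucleolus, where RNA polymerase I transcribes the ribosomal DNA, small nucleolar ribonucleoproteins (snoRNPs) guide chemical modification of the precursor rRNA, and assembly factors fold and cleave it within the small and large subunit precursors. Myc is a transcription factor that pairs with Max on DNA, is induced in T cells by antigen receptor signals, and is known as an activator of RNA polymerase I genes, snoRNP genes and assembly factor genes. Activated T cells grow before they divide, and enlarge their nucleoli as they do.

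Naive CD4 T cells of C57BL/6 mice were activated in vitro for 3.5 days on plate-bound anti-CD3 and anti-CD28 antibodies, sorted, and made into 3′ mRNA libraries from 50 ng of total RNA. The groups, by their labels, were TfhA_4e4 (n = 5), Tfh5_4e4 (n = 6), Tfh2_1e4 (n = 6), Tfh2_2e4 (n = 5), Tfh2_4e4 (n = 6) and Tfh2_6e4 (n = 6). What the codes A, 5 and 2 stand for, what the number after them counts, and how the cells were gated are not given in the sources used here, and nothing says whether libraries of a group came from separate mice or cultures, so p-values measure the spread between these libraries, which may be technical. The libraries allow comparisons between the codes at the number 4e4 (TfhA and Tfh5 against Tfh2) and a series of numbers within Tfh2.

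Library totals ran from 4481509 to 9934245 counts, and 2 identifiers with no gene name in the annotation used held 39.2 to 53.8% of them. The 6 CD4 T cell markers summed to 1236 to 1927 CPM per library (CPM being counts scaled to a common library size). The B cell, NK cell and myeloid lists reached at most 1.52, 0.839 and 2.82 CPM, the CD8 pair 3.85 to 15.5 CPM, and Ncr1 was at 0 in every library. In bulk RNA, fewer cells of a type and less RNA per cell cannot be told apart. Mitochondrial rRNA made up 12.6 to 17.3% of the remaining counts in TfhA_4e4 libraries, against 8.37 to 11.1% in Tfh5_4e4 libraries and 8.06 to 11.1% in Tfh2_4e4 libraries, so this share moved with every TfhA comparison. It also moved with the Tfh2 number, with group means of 8.41, 9.38, 9.92 and 10.2% in Tfh2_1e4, Tfh2_2e4, Tfh2_4e4 and Tfh2_6e4 libraries. Libraries with replicate numbers 4 to 6 also stood apart from those numbered 1 to 3 in part of the genes described here.

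Myc and Max bind the E-box CACGTG, which reads the same on both strands. RefSeq promoter windows (GRCm38.p6, 250 bases before to 50 after the annotated start) were found for 37 of the 43 genes, while Rrs1, Bop1, Npm1, Fbl, Rrp12 and Myc had none. CACGTG lay in the windows of 8 of the 37 (21.6%), against 1063 of the 8853 tested genes that had a window. The variant CACGCG, searched with its reverse complement CGCGTG, lay in 13 of the 37 (35.1%), against 21.0%. A match describes the letters only and is not a binding site. The bases before the start are shown for genes that differ in their motifs and in how their RNA behaved in the Tfh2 series: Rrn3, with an E-box at 215 and at 48 bases before the start (chr16:13780449-13780698, plus strand), Imp4, with 1 at 121 bases (chr1:34439579-34439828, plus strand), Nop2, with 1 at 60 bases (chr6:125131633-125131882, plus strand), and Gar1, with none (chr3:129831397-129831646, minus strand). Capitals mark CACGTG.
Rrn3: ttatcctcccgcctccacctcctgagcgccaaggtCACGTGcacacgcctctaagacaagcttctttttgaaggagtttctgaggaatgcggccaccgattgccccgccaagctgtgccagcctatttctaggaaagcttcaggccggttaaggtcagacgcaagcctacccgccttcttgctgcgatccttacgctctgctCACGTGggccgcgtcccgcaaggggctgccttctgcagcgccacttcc
Imp4: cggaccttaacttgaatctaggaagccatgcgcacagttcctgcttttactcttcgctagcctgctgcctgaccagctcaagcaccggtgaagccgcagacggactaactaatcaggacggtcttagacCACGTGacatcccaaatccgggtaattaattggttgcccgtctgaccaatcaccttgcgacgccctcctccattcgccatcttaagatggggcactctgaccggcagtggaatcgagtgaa
Nop2: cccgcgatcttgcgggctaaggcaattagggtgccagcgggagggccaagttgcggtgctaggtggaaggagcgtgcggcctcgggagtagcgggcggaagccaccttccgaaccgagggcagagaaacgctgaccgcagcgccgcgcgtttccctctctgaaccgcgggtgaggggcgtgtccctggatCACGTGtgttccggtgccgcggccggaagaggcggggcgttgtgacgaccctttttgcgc
Gar1: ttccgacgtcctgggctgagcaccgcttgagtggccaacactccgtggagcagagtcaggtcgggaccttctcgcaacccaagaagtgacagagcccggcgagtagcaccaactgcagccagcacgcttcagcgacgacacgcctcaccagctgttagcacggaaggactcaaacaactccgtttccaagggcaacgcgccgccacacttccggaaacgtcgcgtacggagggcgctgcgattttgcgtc
Across the Tfh2 series Imp4 and Gar1 fell, Nop2 rose, and Rrn3 did not pass the test, as given for each gene with its role group. The other genes with CACGTG, all at 3 to 41 bases after the start, were Utp20, Wdr43, Tsr1, Pes1 and Mybbp1a.

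Within the Tfh2 series, genes of the nucleolar machinery fell more often than they rose as the number in the label went up. A gene was counted as changed when its edgeR quasi-likelihood test, adjusted by Benjamini-Hochberg over all 11357 genes, gave a p under 0.05. Per doubling of the number, 23 of the 43 genes changed (53.5%, against 46.9% of all tested genes). Of these 16 fell (37.2%, against 22.8%) and 7 rose (16.3%, against 24.1%), and the median slope was -0.03 on the log2 scale, beside 0.00 over all tested genes. The 16 that fell came from every role group of the 42 genes other than Myc, led by Gar1 and Rrs1, while the 7 that rose included Ncl and Npm1.

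Between the ends of the series the count was similar. In Tfh2_6e4 against Tfh2_1e4 cells, 20 genes changed, 6 higher and 14 lower (43% of all tested genes, 22.3% higher and 20.7% lower). The libraries of these groups did not overlap for 4 genes that were higher and 8 that were lower, where 13.1% and 11.1% of all tested genes did not overlap. The steps between neighbouring numbers were uneven. None of the 43 changed in Tfh2_2e4 against Tfh2_1e4 cells by edgeR (5.26% of all tested genes), where 4 had an unadjusted p under 0.05, DESeq2 called 1 and limma-voom 0. In Tfh2_4e4 against Tfh2_2e4 cells 9 changed, 2 higher and 7 lower (13% of all tested genes, 7.59% higher and 5.4% lower). That count fell to 5 without Tfh2_4e4 replicate 3 and Tfh2_2e4 replicate 6. These libraries were set apart for carrying genes high in TfhA_4e4 cells, for which no values are given here. None changed in Tfh2_6e4 against Tfh2_4e4 cells by edgeR (1.48% of all tested genes), where 3 had an unadjusted p under 0.05 and DESeq2 and limma-voom each called 0.

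Between the labelled groups at 4e4 a smaller share of the set than of all tested genes passed the test. In TfhA_4e4 against Tfh2_4e4 cells 7 of 43 changed (32.8% of all tested genes), 5 of them higher (15.5% of all tested genes) and 2 lower (17.4%). Polr1c, Nop56, Nop10, Utp20 and Noc2l were higher, and Myc and Rrp12 were lower. None of the 43 changed in Tfh5_4e4 against Tfh2_4e4 cells by edgeR (3.11% of all tested genes), where 6 had an unadjusted p under 0.05 and DESeq2 and limma-voom each called 0. Even so 34 of the 43 fitted changes in that comparison were below 0, with a median of -0.12 beside -0.01 over all tested genes. In TfhA_4e4 against Tfh5_4e4 cells 12 changed, 10 higher and 2 lower (39.5% of all tested genes, 19.1% higher and 20.4% lower). By direction, a larger share of the set than of all tested genes was higher there, and a smaller share was lower. These 3 comparisons share libraries, so their lists are not independent of each other.

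The share of mitochondrial rRNA changed which genes were counted in the TfhA comparisons. With that share as a covariate, 10 genes changed in TfhA_4e4 against Tfh2_4e4 cells, 3 higher and 7 lower (24% of all tested genes), of which Myc, Polr1c and Nop10 were also counted without it. The 7 others were Nhp2, which was higher, and Nop58, Dkc1, Ddx10, Ncl, Npm1 and Gnl3, which were lower. In TfhA_4e4 against Tfh5_4e4 cells the covariate left 9 genes, 5 higher and 4 lower (28.2% of all tested genes), and 5 of them had been counted without it: Myc, Polr1b, Polr1c, Nhp2 and Nop10. In the Tfh2 slope the covariate added Dkc1, at -0.19 (edgeR adjusted p = 0.00274), and ended the call of Ncl, with 43.8% of all tested genes called. In Tfh2_6e4 against Tfh2_1e4 cells it added Dkc1 and Noc3l and ended the calls of Nop56, Wdr43 and Ncl, with 39.9% of all tested genes called. At 4e4 the share in TfhA_4e4 libraries did not overlap that of the other groups, so the adjusted TfhA values extend the fit beyond a shared range. Nop58, Dkc1, Ddx10, Ncl, Npm1 and Gnl3 were also among the genes higher in replicates 4 to 6, where the share was higher too. The part of this share in the result was not tested further.

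**Figure D1:**
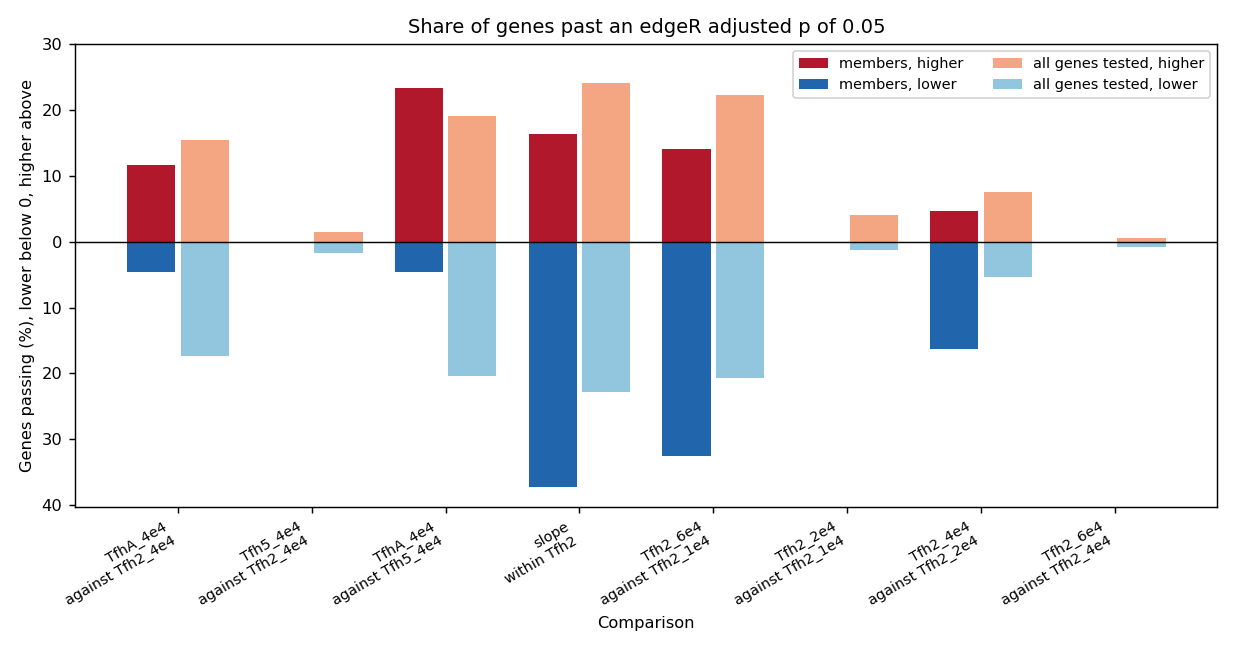
Share of genes past an edgeR adjusted p of 0.05 in each of the 8 comparisons, in percent, for the 43 ribosome biogenesis genes and Myc (dark bars) and all 11357 tested genes (pale bars), with higher drawn above 0 and lower below it. In the Tfh2 slope 37.2% of the 43 genes fell against 22.8% of all tested genes, and in TfhA_4e4 against Tfh2_4e4 cells 4.65% were lower against 17.4%.

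**Figure D2:**
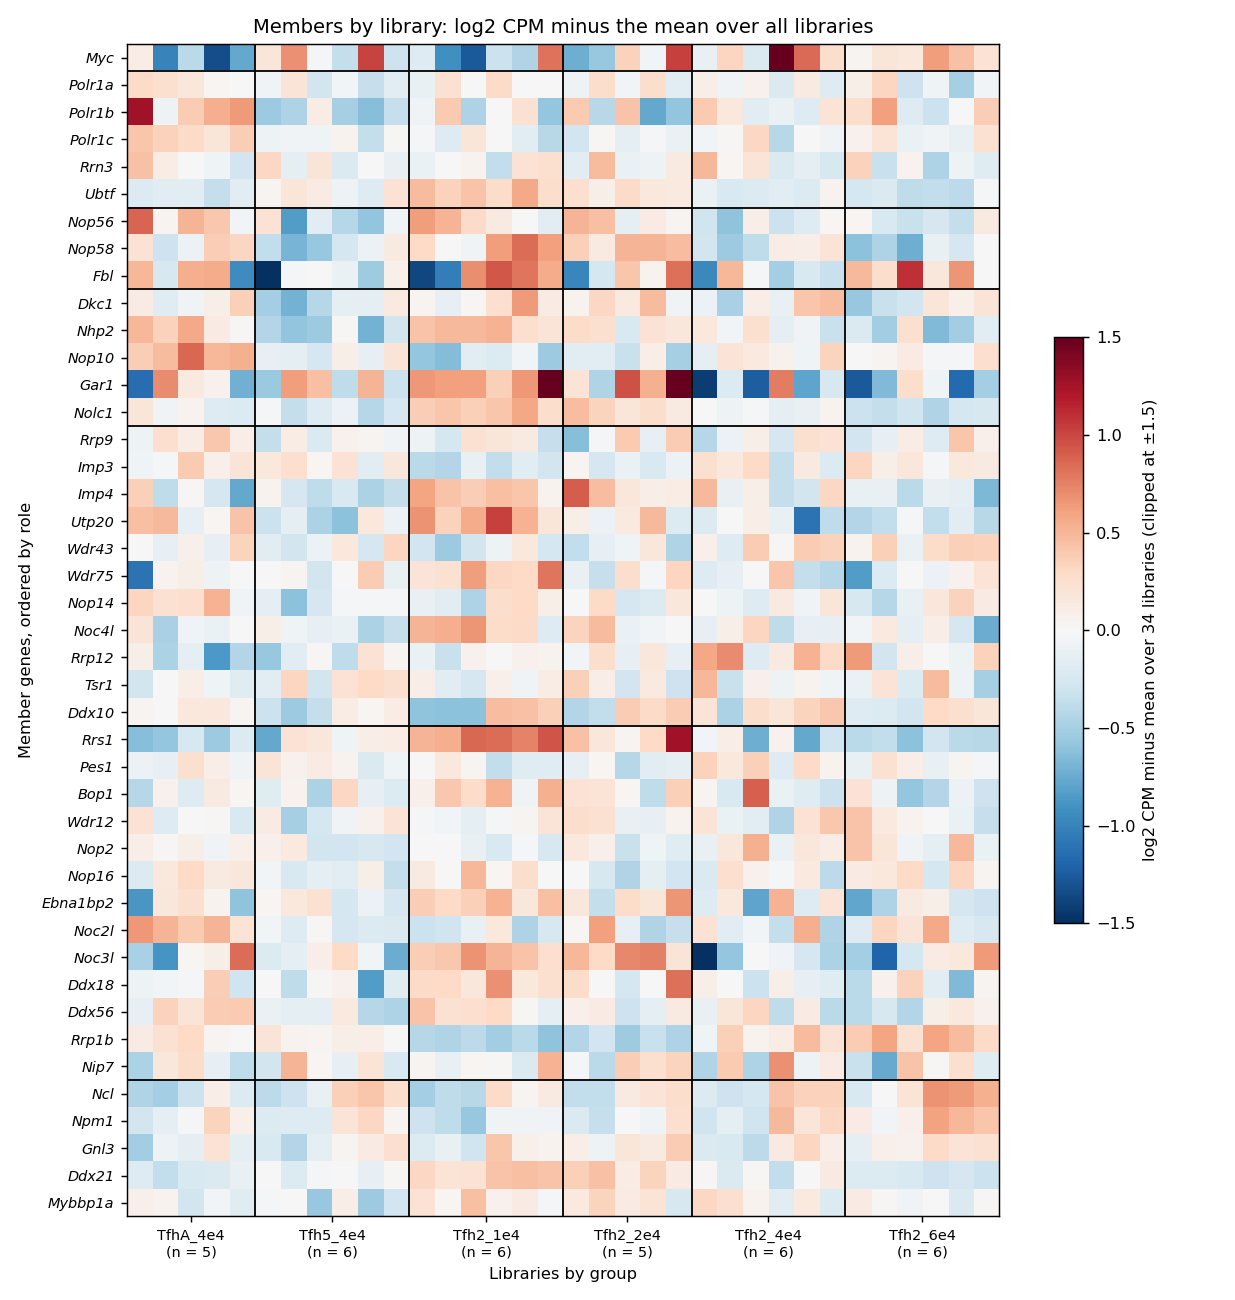
Log2 CPM of each of the 43 genes in each of the 34 libraries, minus that gene's mean over all libraries, with colour clipped at ±1.5, genes in rows by role and libraries in columns by group. Rrs1, Ubtf and Nolc1 are above their mean throughout Tfh2_1e4, where 16 of the 43 genes have their highest group mean, and Tfh5_4e4 holds the lowest group mean of 16.

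Myc itself (chr15:61985341-61990361 on GRCm38.p6, as are the gene positions that follow) was lower in TfhA_4e4 cells. The 5 TfhA_4e4 libraries held 10.9, 4.97, 7.63, 3.95 and 5.88 CPM. The 6 Tfh5_4e4 libraries ran from 7.88 to 20.6 CPM with a median of 10.7, and the 6 Tfh2_4e4 libraries from 8.68 to 33.5 CPM with a median of 12.4. All 5 TfhA_4e4 libraries lay below the mean of either other group at 4e4, but their ranges overlapped, because TfhA_4e4 replicate 1 reached into both. Myc averaged 6.67 ± 2.74 CPM in TfhA_4e4 cells (SD, n = 5), against 15.8 ± 9.35 CPM in Tfh2_4e4 cells (SD, n = 6), a log2 fold change of -1.25 ± 0.35 (SE, edgeR adjusted p = 0.00438). It stayed past the threshold when any 1 library of the pair of groups was left out, with changes from -1.51 to -0.89, the smallest without Tfh2_4e4 replicate 4, which held 33.5 CPM. The replicate numbers mattered more. With replicates 1 to 3 alone the change was -0.40 (edgeR adjusted p = 0.452), and with replicates 4 to 6 alone it was -2.16 (edgeR adjusted p = 0.00116). The latter fit held only replicates 5 and 6 of TfhA_4e4, and it included the Tfh2_4e4 library at 33.5 CPM. Against Tfh5_4e4 cells, at 12.4 ± 5.06 CPM (SD, n = 6), Myc in TfhA_4e4 cells was lower by a log2 fold change of -0.90 ± 0.35 (SE, edgeR adjusted p = 0.0369). That call was lost when TfhA_4e4 replicate 2, 5 or 6 or Tfh5_4e4 replicate 2 or 5 was left out, and DESeq2 and limma-voom gave adjusted p-values of 0.0598 and 0.0643. Between Tfh5_4e4 and Tfh2_4e4 cells it did not pass (log2 fold change -0.35 ± 0.31, SE, edgeR adjusted p = 0.677), and without Tfh2_4e4 replicate 4 the value was 0.03.

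In the Tfh2 series Myc was not among the genes that fell, and its fitted slope was above 0. Its range was 4.15 to 17.9 CPM in Tfh2_1e4 libraries (median 7.72), and the 5 Tfh2_2e4 libraries held 6.05, 6.79, 12.9, 9.84 and 20.7 CPM. Tfh2_6e4 libraries ran from 10.4 to 15.8 CPM with a median of 11.6, a narrow range that lay within that of Tfh2_4e4. The 6 Tfh2_6e4 libraries all exceeded the Tfh2_1e4 mean, yet Tfh2_1e4 replicate 6 at 17.9 CPM exceeded every one of them. The slope of Myc was 0.25 ± 0.11 log2 per doubling (SE, edgeR adjusted p = 0.0639). It passed without Tfh2_1e4 replicate 6, Tfh2_2e4 replicate 6 or Tfh2_4e4 replicate 3, with limma-voom (adjusted p = 0.0331), with no filter on low counts, with either replicate covariate and in replicates 1 to 3 alone, so the call depended on the setting. From high to low, the group means ran Tfh2_4e4, Tfh2_6e4, Tfh5_4e4, Tfh2_2e4, Tfh2_1e4 and TfhA_4e4, and each neighbouring pair differed by less than the larger of its SDs.

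**Figure D3:**
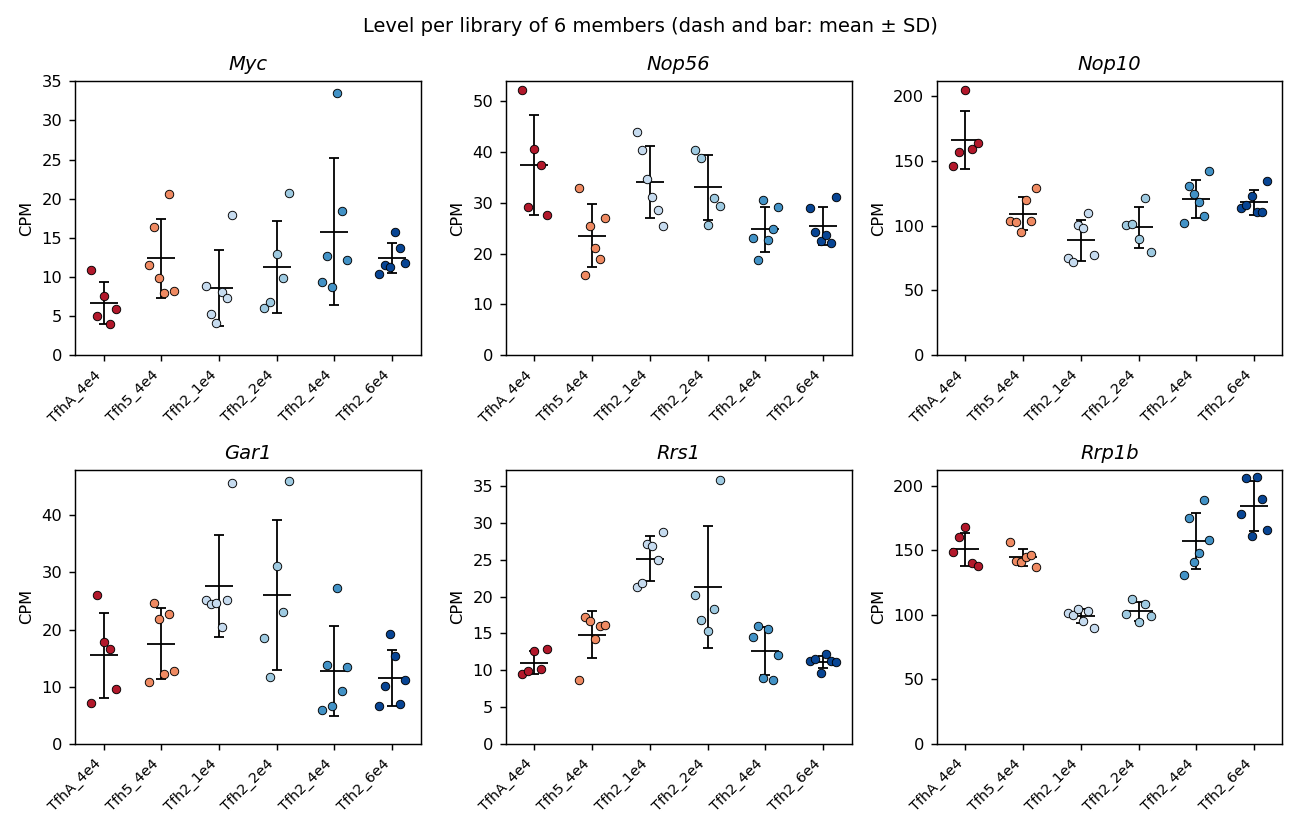
CPM of 6 genes in every library of the 6 groups, 1 point a library, with a dash at the mean and a bar of ± 1 SD. Myc shows 1 Tfh2_4e4 library at 33.5 CPM, Nop10 is highest in TfhA_4e4 libraries (146 to 205 CPM), Rrs1 and Gar1 are lower in Tfh2_6e4 than in Tfh2_1e4 libraries, and Rrp1b is higher.

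RNA polymerase I genes split by subunit and factor. Polr1c, a subunit shared with RNA polymerase III, was higher in TfhA_4e4 cells, where the 5 libraries held 131, 125, 120, 111 and 127 CPM. Tfh5_4e4 libraries ran from 77.1 to 102 CPM (median 94.4) and Tfh2_4e4 libraries from 74.1 to 122 CPM (median 97.2). TfhA_4e4 and Tfh5_4e4 libraries did not overlap, as for 3 of the 43 genes, all higher, where 12.6% of all tested genes did not overlap in each direction. The log2 fold change was 0.33 ± 0.11 against Tfh2_4e4 cells (SE, edgeR adjusted p = 0.0134) and 0.40 ± 0.11 against Tfh5_4e4 cells (SE, edgeR adjusted p = 0.00259). The first of these missed the threshold without Tfh2_4e4 replicate 4 (edgeR adjusted p = 0.0545). Polr1b, one of the pair of large catalytic subunits, differed between TfhA_4e4 and Tfh5_4e4 cells. It averaged 11.1 ± 3.95 CPM in TfhA_4e4 cells (SD, n = 5), against 5.54 ± 1.17 CPM in Tfh5_4e4 cells (SD, n = 6), with a log2 fold change of 1.0 ± 0.25 (SE, edgeR adjusted p = 0.00109). All 5 TfhA_4e4 libraries exceeded the Tfh5_4e4 mean, but 1 Tfh5_4e4 library at 7.81 CPM lay above the lowest of them, at 6.84 CPM.

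Ubtf, which binds the ribosomal DNA and keeps it open for RNA polymerase I, carried the change of this group in the Tfh2 series. Tfh2_6e4 libraries ran from 73.2 to 94.8 CPM (median 77.4), against 115 to 142 CPM in Tfh2_1e4 libraries (median 125). The groups did not overlap, and the slope was -0.27 ± 0.03 log2 per doubling (SE, edgeR adjusted p = 1.59e-09). At 4e4 Ubtf averaged 82.9 ± 4.49 CPM in TfhA_4e4 cells (SD, n = 5), against 99.6 ± 10.7 CPM in Tfh5_4e4 cells (SD, n = 6), with a log2 fold change of -0.26 ± 0.09 (SE, edgeR adjusted p = 0.0206). That call was lost without TfhA_4e4 replicate 5 or Tfh5_4e4 replicate 6. Polr1a, the largest catalytic subunit, and Rrn3, which brings the polymerase to its promoter, passed in no comparison. Rrn3, whose promoter holds a pair of E-boxes, kept group means between 19.8 and 22.1 CPM throughout.

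The core proteins of box C/D snoRNPs, the particles that carry out ribose methylation of rRNA, were higher in TfhA_4e4 than in Tfh5_4e4 cells and fell in the Tfh2 series, apart from Fbl. Nop56, a scaffold of the particle, held 52.1, 29.2, 40.6, 37.5 and 27.5 CPM in the TfhA_4e4 libraries. It ran from 15.8 to 33.0 CPM in Tfh5_4e4 libraries (median 23.2) and from 18.7 to 30.5 CPM in Tfh2_4e4 libraries (median 23.9). All 5 TfhA_4e4 libraries exceeded both means, with some overlap of the ranges. The log2 fold change was 0.59 ± 0.17 against Tfh2_4e4 cells (SE, edgeR adjusted p = 0.00629, or 0.0551 without TfhA_4e4 replicate 1) and 0.68 ± 0.17 against Tfh5_4e4 cells (SE, edgeR adjusted p = 0.00158). Nop58, its partner scaffold, averaged 99.6 ± 19.2 CPM in TfhA_4e4 cells (SD, n = 5), against 75.4 ± 16.3 CPM in Tfh5_4e4 cells (SD, n = 6), with a log2 fold change of 0.41 ± 0.16 (SE, edgeR adjusted p = 0.0409). That call was lost in 7 of the 11 fits that left out 1 library, and the change was -0.40 with the share of mitochondrial rRNA as a covariate (edgeR adjusted p = 0.106). Per doubling of the Tfh2 number Nop58 fell by 0.31 ± 0.05 and Nop56 by 0.19 ± 0.06 in log2 units (SE, edgeR adjusted p = 5.29e-06 and 0.00549). Fbl, the methyltransferase of the particle, was counted at 1.26 to 9.08 CPM and passed in no comparison. Annotated snoRNA genes lie inside Nop56 (5), Nop58 (4), Wdr43 (3), Ncl (2), Gnl3 (3), Dkc1 (1) and Tsr1 (1). Of the genes that changed, Nop56 overlaps Idh3b, Nhp2 overlaps Rmnd5b, Bop1 overlaps Mroh1 and Scx, Noc2l overlaps Klhl17 and Samd11, Nop14 overlaps Gm15522, and Ebna1bp2 overlaps Cfap57, so reads of such neighbours could not be separated if counting ignored strand.

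Proteins of the box H/ACA particles, which convert uridine to pseudouridine in rRNA and also protect telomerase RNA, went different ways. Nop10 (chr2:112261926-112262898), a small core protein, was the 1 gene whose TfhA_4e4 and Tfh2_4e4 libraries did not overlap (9.53% of all tested genes did not overlap upward and 9.86% downward). Its TfhA_4e4 libraries held 146, 157, 205, 160 and 164 CPM, against 95.0 to 129 CPM in Tfh5_4e4 libraries (median 104) and 102 to 142 CPM in Tfh2_4e4 libraries (median 121). Every TfhA_4e4 library was above every library of the other 5 groups. The log2 fold change was 0.46 ± 0.12 against Tfh2_4e4 cells (SE, edgeR adjusted p = 0.00152) and 0.61 ± 0.12 against Tfh5_4e4 cells (SE, edgeR adjusted p = 3.2e-05), and with the share of mitochondrial rRNA as a covariate these were 0.60 and 0.75. Nop10 also rose in the Tfh2 series, by 0.18 ± 0.04 log2 per doubling (SE, edgeR adjusted p = 0.000237), while Gar1, Nolc1 and Nhp2 of the same group fell.

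Gar1 (chr3:129824912-129831407), which helps the particle take up and release its RNA substrate, had the steepest fall of the 43 genes. It ran from 20.5 to 45.6 CPM in Tfh2_1e4 libraries (median 24.9), held 18.4, 11.7, 31.1, 23.1 and 45.9 CPM in the Tfh2_2e4 libraries, ran from 5.88 to 27.3 CPM in Tfh2_4e4 libraries (median 11.3) and from 6.61 to 19.2 CPM in Tfh2_6e4 libraries (median 10.6). Tfh2_6e4 and Tfh2_1e4 libraries did not overlap. The slope was -0.55 ± 0.11 log2 per doubling (SE, edgeR adjusted p = 6.58e-05), and it passed whichever library was left out. The step down in Tfh2_4e4 against Tfh2_2e4 cells, a log2 fold change of -1.03 ± 0.33 (SE, edgeR adjusted p = 0.0266), was lost in 5 of the 11 fits that left out 1 library, with -0.74 without Tfh2_2e4 replicate 6. Nolc1, a chaperone of snoRNPs, averaged 59.5 ± 2.99 CPM in Tfh2_6e4 cells, against 98.3 ± 7.17 CPM in Tfh2_1e4 cells (SD, n = 6 each), and fell by 0.28 ± 0.03 log2 per doubling (SE, edgeR adjusted p = 6.33e-10). Nhp2, a core protein, fell by 0.25 ± 0.05 log2 per doubling (SE, edgeR adjusted p = 4.35e-05) and was higher in TfhA_4e4 than in Tfh5_4e4 cells, at 45.8 ± 7.44 CPM (SD, n = 5) against 27.6 ± 5.32 CPM (SD, n = 6), with a log2 fold change of 0.73 ± 0.14 (SE, edgeR adjusted p = 5.65e-05). Dkc1, the pseudouridine synthase itself, passed in no comparison without a covariate, and its group means lay between 67.2 and 93.2 CPM.

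Of the 11 small subunit factors, 2 changed in TfhA_4e4 against Tfh2_4e4 cells, in opposite directions. Rrp12, which helps pre-ribosomal subunits leave the nucleus in yeast, held 13.5, 9.12, 11.6, 6.95 and 9.40 CPM in the TfhA_4e4 libraries, against 11.1 to 21.0 CPM in Tfh2_4e4 libraries (median 17.0). All 5 lay below the Tfh2_4e4 mean, and the log2 fold change was -0.71 ± 0.19 (SE, edgeR adjusted p = 0.00293). That call was lost in replicates 1 to 3 alone and with the share of mitochondrial rRNA as a covariate (-0.55, edgeR adjusted p = 0.167). Utp20, a scaffold of the early small subunit particle, held 18.9, 19.3, 12.6, 14.0 and 18.6 CPM in the TfhA_4e4 libraries, against 8.94 to 15.3 CPM in Tfh5_4e4 libraries (median 11.7) and 6.29 to 14.8 CPM in Tfh2_4e4 libraries (median 12.3). The ranges overlapped, although all 5 TfhA_4e4 libraries exceeded both means. The log2 fold changes were 0.50 ± 0.19 against Tfh2_4e4 cells (SE, edgeR adjusted p = 0.0335) and 0.50 ± 0.19 against Tfh5_4e4 cells (SE, edgeR adjusted p = 0.0289), and these calls were lost in 5 and 6 of the 11 fits that left out 1 library. Nop14, an early factor of the same particle, was higher in TfhA_4e4 than in Tfh5_4e4 cells, with a log2 fold change of 0.44 ± 0.14 (SE, edgeR adjusted p = 0.0107). Leaving out TfhA_4e4 replicate 5 ended that call, and with the share of mitochondrial rRNA as a covariate the change was 0.08.

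In the Tfh2 series 4 of the 11 small subunit factors fell (36.4%, against 22.8% of all tested genes) and 2 rose (18.2%, against 24.1%). Utp20 fell most, at 11.2 ± 1.34 CPM in Tfh2_6e4 cells against 20.5 ± 4.35 CPM in Tfh2_1e4 cells (SD, n = 6 each), with no overlap and a slope of -0.34 ± 0.06 log2 per doubling (SE, edgeR adjusted p = 1.2e-05). Imp4, which binds the U3 snoRNA that folds the precursor rRNA, fell by 0.25 ± 0.06 (SE, edgeR adjusted p = 0.000315), also without overlap between the end groups. Wdr75 fell by 0.21 ± 0.06 and Noc4l by 0.20 ± 0.05 in the same units (SE, edgeR adjusted p = 0.00388 and 0.00174). The pair that rose were partners of genes that fell. Imp3, which acts in the same complex as Imp4, averaged 96.5 ± 7.54 CPM in Tfh2_6e4 cells, against 71.5 ± 6.63 CPM in Tfh2_1e4 cells (SD, n = 6 each), with no overlap and a slope of 0.17 ± 0.04 (SE, edgeR adjusted p = 0.000212). Wdr43, which like Wdr75 belongs to the complex that joins the precursor rRNA first, rose by 0.19 ± 0.04 (SE, edgeR adjusted p = 0.000526) with group means from 215 to 289 CPM. Rrp9, Tsr1 and Ddx10 passed in no comparison without a covariate.

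Rrs1 (chr1:9545408-9547455), which helps place 5S rRNA into the large subunit precursor, was the clearest of the large subunit factors to fall. Tfh2_1e4 libraries ran from 21.3 to 28.8 CPM (median 25.9), and the 5 Tfh2_2e4 libraries held 20.2, 16.8, 15.3, 18.4 and 35.9 CPM. Tfh2_4e4 libraries ran from 8.70 to 15.98 CPM (median 13.3) and Tfh2_6e4 libraries from 9.66 to 12.2 CPM (median 11.2). The highest Tfh2_6e4 library was well below the lowest Tfh2_1e4 library, and the log2 fold change between these groups was -1.17 ± 0.18 (SE, edgeR adjusted p = 8.45e-07). The slope was -0.49 ± 0.06 log2 per doubling (SE, edgeR adjusted p = 2.24e-08), with -0.45 in replicates 1 to 3 and -0.55 in replicates 4 to 6. The log2 fold change was -0.23 ± 0.18 in Tfh2_2e4 against Tfh2_1e4 cells (SE, edgeR adjusted p = 0.641) and -0.76 ± 0.19 in Tfh2_4e4 against Tfh2_2e4 cells (SE, edgeR adjusted p = 0.00385). Without Tfh2_2e4 replicate 6, the library at 35.9 CPM, these steps were of like size, at -0.52 and -0.51, and neither passed (edgeR adjusted p = 0.1002 and 0.0656). At 4e4 Rrs1 held 9.55, 9.95, 12.6, 10.2 and 12.9 CPM in the TfhA_4e4 libraries and 8.70 to 17.3 CPM in Tfh5_4e4 libraries (median 16.04). It did not pass in TfhA_4e4 against Tfh2_4e4 cells (-0.20 ± 0.20, SE, edgeR adjusted p = 0.488), in Tfh5_4e4 against Tfh2_4e4 cells (0.23 ± 0.18, SE, edgeR adjusted p = 0.623) or in TfhA_4e4 against Tfh5_4e4 cells (-0.43 ± 0.20, SE, edgeR adjusted p = 0.0813, or 0.0213 without Tfh5_4e4 replicate 1).

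Rrp1b (chr17:32036162-32062865), a nucleolar protein that draws protein phosphatase 1 to the nucleolus, did the opposite of Rrs1. Tfh2_6e4 libraries ran from 161 to 207 CPM (median 184), against 90.0 to 104 CPM in Tfh2_1e4 libraries (median 101), and the slope was 0.37 ± 0.03 log2 per doubling (SE, edgeR adjusted p = 2.86e-13). The libraries of Tfh2_4e4 and Tfh2_2e4 did not overlap for 1 gene that was higher, Rrp1b, and 3 that were lower, Ubtf, Nolc1 and Noc3l (4.31% and 2.73% of all tested genes). For Rrp1b all 6 Tfh2_4e4 libraries, at 131 to 189 CPM, were above the 5 Tfh2_2e4 libraries, at 101, 112, 94.3, 108 and 98.9 CPM. The log2 fold change between them was 0.61 ± 0.09 (SE, edgeR adjusted p = 5.56e-06). In TfhA_4e4 and Tfh5_4e4 cells Rrp1b averaged 151 ± 12.8 CPM (SD, n = 5) and 145 ± 6.83 CPM (SD, n = 6), against 157 ± 21.9 CPM in Tfh2_4e4 cells (SD, n = 6).

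Among the other large subunit factors Noc3l, Ebna1bp2, Ddx18 and Bop1 fell in the Tfh2 series, with slopes of -0.30 ± 0.09, -0.23 ± 0.06, -0.18 ± 0.06 and -0.17 ± 0.06 log2 per doubling (SE, edgeR adjusted p from 0.00342 to 0.0252). Noc3l and Ddx18 did not pass between the ends of the series, at -0.52 and -0.41. The slope of Noc3l did not pass in replicates 4 to 6 alone, nor those of Ddx18 and Bop1 in replicates 1 to 3 alone. The factor Nop2, which methylates the large subunit rRNA, rose by 0.11 ± 0.05 (SE, edgeR adjusted p = 0.0408), but 16 of the 23 fits that left out 1 library ended that call. Bop1 works with Pes1 and Wdr12 in 1 complex, and the partners did not share its fall. Pes1 had a slope of 0.08 and Wdr12 of 0.01, neither past the threshold. Pes1 was higher in Tfh2_4e4 than in Tfh2_2e4 cells (log2 fold change 0.34 ± 0.11, SE, edgeR adjusted p = 0.0432), a call lost in 8 of the 11 fits that left out 1 library. Noc3l, by contrast, was lower in Tfh2_4e4 than in Tfh2_2e4 cells without overlap (-0.91 ± 0.26, SE, edgeR adjusted p = 0.013), a call lost in either replicate range taken alone. Noc2l, which binds Noc3l in yeast, was higher in TfhA_4e4 cells, whose 5 libraries held 33.0, 30.05, 27.7, 30.07 and 24.2 CPM. Tfh5_4e4 libraries ran from 17.6 to 21.4 CPM (median 18.3) and Tfh2_4e4 libraries from 15.4 to 30.8 CPM (median 19.5). TfhA_4e4 and Tfh5_4e4 libraries did not overlap, and the log2 fold change was 0.61 ± 0.18 (SE, edgeR adjusted p = 0.00487). Against Tfh2_4e4 cells it was 0.47 ± 0.18 (SE, edgeR adjusted p = 0.0335), which was lost in 6 of the 11 fits that left out 1 library. Ddx56, an RNA helicase, was higher in TfhA_4e4 than in Tfh5_4e4 cells (0.42 ± 0.15, SE, edgeR adjusted p = 0.0229), a call lost in 4 such fits. Nop16 and Nip7 passed in no comparison without a covariate.

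Of the multifunctional nucleolar proteins 2 rose and 1 fell in the Tfh2 series (24.1% and 22.8% of all tested genes). Ncl (chr1:86344719-86359455), nucleolin, which binds precursor rRNA and ribosomal DNA, averaged 1322 ± 325 CPM in Tfh2_6e4 cells, against 967 ± 225 CPM in Tfh2_1e4 cells (SD, n = 6 each), and rose by 0.16 ± 0.06 log2 per doubling (SE, edgeR adjusted p = 0.0261). Npm1, nucleophosmin, a chaperone of the nucleolus, averaged 559 ± 100 CPM against 389 ± 57.1 CPM in the same groups (SD, n = 6 each), without overlap, and rose by 0.19 ± 0.05 (SE, edgeR adjusted p = 0.00105). With the share of mitochondrial rRNA as a covariate the slope of Ncl was 0.05 (edgeR adjusted p = 0.438), and 7 of the 23 fits that left out 1 library ended its call. Ddx21, a helicase that works on rRNA and on transcription of ribosomal genes, fell. Its Tfh2_6e4 libraries ran from 250 to 272 CPM (median 264), against 360 to 426 CPM in Tfh2_1e4 libraries (median 405), and its slope was -0.24 ± 0.03 (SE, edgeR adjusted p = 5.26e-09). Without a covariate, Gnl3, nucleostemin, and Mybbp1a passed in no comparison of groups, and no gene of this class passed between the groups at 4e4. With the share of mitochondrial rRNA as a covariate Ncl, Npm1 and Gnl3 were lower in TfhA_4e4 than in Tfh2_4e4 cells, at -1.06, -0.60 and -0.51 (edgeR adjusted p = 0.000157, 0.0094 and 0.0363). With that covariate they were also lower in TfhA_4e4 than in Tfh5_4e4 cells. Without it the changes against Tfh2_4e4 cells were -0.35, -0.07 and -0.08, and none passed.

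**Figure D4:**
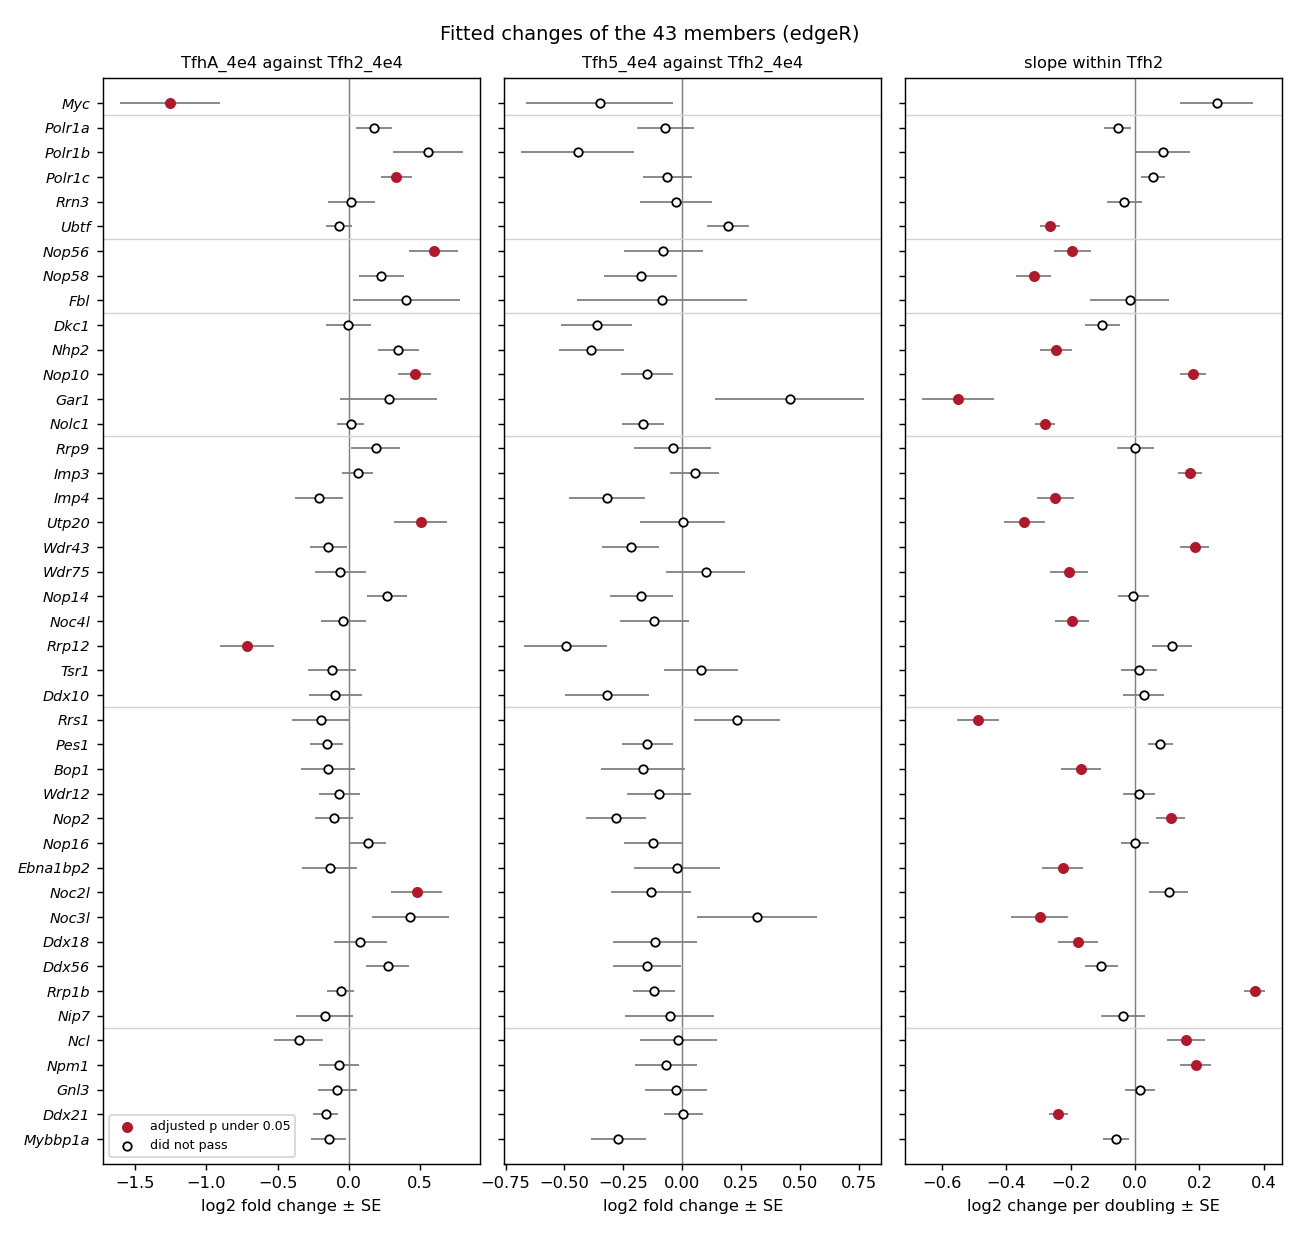
Fitted log2 fold change of each of the 43 genes in TfhA_4e4 against Tfh2_4e4 cells and Tfh5_4e4 against Tfh2_4e4 cells, and the log2 slope per doubling within Tfh2, with bars of ± 1 SE and filled points for an edgeR adjusted p under 0.05. There are 7 filled points in the first panel, 0 in the middle one and 23 in the last, where Gar1 (-0.55) and Rrp1b (0.37) lie at the ends.

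Libraries with replicate numbers 4 to 6 differed from those numbered 1 to 3 within the same groups, and genes of this set were among those that did. With group in the same edgeR fit, 13 of the 43 genes differed, 9 higher and 4 lower (17.2% of all tested genes, 9.66% higher and 7.5% lower). Ncl was highest in its size, with a log2 difference of 0.57, followed by Ddx10 at 0.52, Myc at 0.50 and Nop58 at 0.47. In the TfhA_4e4 libraries Ncl held 1115 and 903 CPM in replicates 5 and 6, and 762, 734 and 834 CPM in replicates 1 to 3. In the Tfh2_4e4 libraries it held 1402, 1322 and 1322 CPM in replicates 4 to 6, and 905, 844 and 866 CPM in replicates 1 to 3. The same separation held in all 6 groups. The mitochondrial rRNA share was also higher in replicates 4 to 6 in all 6 groups, for instance with means of 17.0% against 13.4% in TfhA_4e4 libraries and 11.2% against 9.18% in Tfh2_6e4 libraries, and its part in these differences was not tested. What the replicate numbers stand for is not stated. Every gene counted in a comparison kept its direction in each range taken alone. This held for 7 of 7 in TfhA_4e4 against Tfh2_4e4 cells and 12 of 12 in TfhA_4e4 against Tfh5_4e4 cells. In the Tfh2 slope it held for 23 of 23. These genes were picked on the same libraries, so this agreement is no independent check. In the range 4 to 6, TfhA_4e4 has replicates 5 and 6 only. Fewer passed: in TfhA_4e4 against Tfh2_4e4 cells 2 genes did within replicates 1 to 3 (Nop56 and Nop10) and 3 within replicates 4 to 6 (Myc, Rrp12 and Ncl).

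The rest of the pathway, 111 further genes of which 109 could be tested, also held more genes that fell than rose in the Tfh2 series: 35 fell (32.1%, against 22.8% of all tested genes) and 12 rose (11%, against 24.1%). Bysl, needed for small subunit assembly, fell by 0.43 ± 0.06 log2 per doubling, and Dis3, a nuclease of the RNA exosome, by 0.39 ± 0.05 (SE, edgeR adjusted p = 1.2e-07 and 2.13e-08). Nop53, a late large subunit factor, rose by 0.41 ± 0.03, and Cd3eap, a subunit of RNA polymerase I, by 0.40 ± 0.04 (SE, edgeR adjusted p = 1.08e-14 and 4.83e-11). In TfhA_4e4 against Tfh2_4e4 cells 10 of the 109 were higher (9.17%, against 15.5% of all tested genes) and 11 lower (10.1%, against 17.4%). Pak1ip1, which acts in large subunit assembly, averaged 64.5 ± 5.56 CPM in TfhA_4e4 cells (SD, n = 5), against 130 ± 12.5 CPM in Tfh2_4e4 cells (SD, n = 6), a log2 fold change of -1.01 ± 0.11 (SE, edgeR adjusted p = 2.89e-10). Tcof1, treacle, which links RNA polymerase I to rRNA modification, went the other way, with 0.53 ± 0.11 (SE, edgeR adjusted p = 0.000117). In Tfh5_4e4 against Tfh2_4e4 cells 1 of the 109 changed (0.917%, against 3.11% of all tested genes), the snoRNP assembly factor Nufip1, which was lower by a log2 fold change of -0.56 ± 0.13 (SE, edgeR adjusted p = 0.00838). In TfhA_4e4 against Tfh5_4e4 cells 19 were higher (17.4%, against 19.1%) and 9 lower (8.26%, against 20.4%).

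In a list of Myc and Max network genes, those that changed in TfhA_4e4 against Tfh2_4e4 cells were all lower, while Mxd3 was higher against Tfh5_4e4 cells only. Mxd1, Mxd4 and Mxi1 pair with Max and repress genes that Myc activates, and each was lower in TfhA_4e4 than in Tfh2_4e4 cells, as Myc was. Mxd1 averaged 37.5 ± 3.79 CPM in TfhA_4e4 cells (SD, n = 5), against 145 ± 14.4 CPM in Tfh5_4e4 cells and 147 ± 27.2 CPM in Tfh2_4e4 cells (SD, n = 6 each), a log2 fold change against Tfh2_4e4 cells of -1.97 ± 0.14 (SE, edgeR adjusted p = 3.93e-16). Mxd4 and Mxi1 gave -1.30 ± 0.18 and -0.98 ± 0.11 (SE, edgeR adjusted p = 8.47e-08 and 1.45e-09). Mxd3, the member of the family linked to dividing cells, was higher in TfhA_4e4 than in Tfh5_4e4 cells, at 12.6 ± 2.67 CPM (SD, n = 5) against 5.05 ± 1.02 CPM (SD, n = 6), a log2 fold change of 1.33 ± 0.25 (SE, edgeR adjusted p = 3.39e-05), while Tfh2_4e4 cells averaged 8.37 ± 3.02 CPM (SD, n = 6). In the Tfh2 series Mxd1 rose by 0.63 ± 0.04 and Mxi1 by 0.25 ± 0.04 log2 per doubling (SE, edgeR adjusted p = 7.06e-16 and 3.6e-07). Mxd3 fell by 0.75 ± 0.08 (SE, edgeR adjusted p = 4.76e-10), to 4.68 ± 2.19 CPM in Tfh2_6e4 cells, against 18.9 ± 4.85 CPM in Tfh2_1e4 cells (SD, n = 6 each). Of the 11 genes in this list, which also held Max, Mlx, Mlxip, Mycn and Mycl, 9 could be tested. In TfhA_4e4 against Tfh2_4e4 cells 0 were higher and 4 lower (15.5% and 17.4% of all tested genes). In TfhA_4e4 against Tfh5_4e4 cells 1 was higher and 4 lower (19.1% and 20.4%). In the Tfh2 slope 4 rose and 2 fell (24.1% and 22.8%).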

How the data were processed

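RNA was measured in 34 libraries of sorted mouse CD4 T cells. The deposited values are raw counts per gene, 1 table per library. STAR 2.7.2b, featureCounts 1.6.4 and the build mm10 are listed, per the submitters' processing notes, with no role stated. How strand and reads with several matches were treated is not given in the sources used here. A joined table repeats the same counts and was not used. Of the 27179 identifiers, 25275 matched a symbol and 1904 did not.

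Counts were fitted in R 4.3.3 with edgeR 4.0.16 (TMM scaling, filterByExpr, quasi-likelihood F-test, two-sided), all 6 groups in 1 fit, and p-values were adjusted over the 11357 genes tested with a threshold of 0.05. The slope is the trend of the 4 Tfh2 group means on log2 of the number in the label. CPM values are counts divided by the TMM-scaled library size and put on the usual CPM scale, computed here, so levels compare samples and not genes of different 3′ end use. The fit was first tested on simulated data. Alternatives used DESeq2 1.42.0, limma-voom (limma 3.58.1), other scaling and filters, only the groups compared, the replicate number or its range, the mitochondrial rRNA share, and leaving out libraries. Library totals of 4481509 to 9934245 counts gave the least abundant genes few counts: the lowest library count was 9 for Fbl, 16 for Noc3l, 22 for Polr1b and 24 for Myc. In each role group the genes given with values were those past the threshold with the largest changes, any that went against the majority, and the gene with the highest CPM, and Myc and Rrs1 were always given. Of each other list, up to 3 genes with the largest change per comparison and a mean log2 CPM of at least 3 could be named. The 43 genes and all lists were chosen with earlier results of these data known. Fits within replicates 1 to 3 or 4 to 6 alone were added after seeing the data. Gene positions and promoters are from RefSeq annotation of GRCm38.p6.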

Additional observations from a re-analysis of the deposited data

Results flagged for a closer look

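Single libraries stood apart from the rest of their group in 14 of 258 tests of a gene in a group, by Dixon's criterion on the gap to the nearest library, and chance gives about 1 in 20. Tfh2_1e4 replicate 6 held 3 of them, all high: Myc at 17.9 CPM (others 4.15 to 8.83), Gar1 at 45.6 CPM (others 20.5 to 25.2) and Nip7 at 33.95 CPM (others 20.2 to 24.3). Rrs1 was high in Tfh2_2e4 replicate 6, at 35.9 CPM (others 15.3 to 20.2), and low in Tfh5_4e4 replicate 1, at 8.70 CPM (others 14.2 to 17.3). Gar1 reached 27.3 CPM in Tfh2_4e4 replicate 4 (others 5.88 to 13.8), and Bop1 33.5 CPM in Tfh2_4e4 replicate 3 (others 14.4 to 18.5). Polr1b was high in Tfh5_4e4 replicate 3, at 7.81 CPM (others 4.59 to 5.66), and Polr1c low in Tfh5_4e4 replicate 5, at 77.1 CPM (others 93.1 to 102). Ubtf was low in TfhA_4e4 replicate 5, at 75.1 CPM (others 83.2 to 85.6), and Wdr75 in TfhA_4e4 replicate 1, at 14.7 CPM (others 30.1 to 33.8). Nhp2 was low in Tfh2_2e4 replicate 4, at 31.1 CPM (others 41.2 to 44.2), Ddx10 low in Tfh2_4e4 replicate 2, at 46.1 CPM (others 72.4 to 84.5), and Ddx18 high in Tfh2_1e4 replicate 4, at 24.3 CPM (others 16.8 to 18.7).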

How the results depend on the processing

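Of the counts and medians of the 43 genes under each alternative, 395 stayed within 1.5 times the reported count or within 1 SD of the reported median and 19 did not. The count in TfhA_4e4 against Tfh2_4e4 cells was 2 in replicates 1 to 3 alone and 3 in replicates 4 to 6 alone, and its median was 0.068 with the mitochondrial rRNA share as a covariate and 0.035 in replicates 1 to 3. In TfhA_4e4 against Tfh5_4e4 cells the count was 5 in replicates 4 to 6 and the median 0.17 with that covariate. In Tfh2_2e4 against Tfh2_1e4 cells DESeq2 called 1, and the median was -0.090 in replicates 4 to 6. In Tfh2_4e4 against Tfh2_2e4 cells the count was 5 without Tfh2_4e4 replicate 3 and Tfh2_2e4 replicate 6, 2 in replicates 1 to 3 and 4 in replicates 4 to 6, with a median of -0.14 in the last. In Tfh2_6e4 against Tfh2_4e4 cells 1 gene was called with the replicate block and 1 with the range of the number as a factor. The cause was not tested for these, except that fits within a range hold fewer libraries.

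Leaving out 1 library at a time gave counts of 4 to 8 and medians of -0.046 to 0.022 in TfhA_4e4 against Tfh2_4e4 cells, 0 to 1 and -0.15 to -0.10 in Tfh5_4e4 against Tfh2_4e4 cells, and 8 to 12 and 0.07 to 0.15 in TfhA_4e4 against Tfh5_4e4 cells. It gave 21 to 24 and -0.06 to -0.01 for the Tfh2 slope, 18 to 23 and -0.15 to -0.06 in Tfh2_6e4 against Tfh2_1e4 cells, 0 to 1 and -0.03 to 0.00 in Tfh2_2e4 against Tfh2_1e4 cells, 6 to 10 and -0.10 to -0.012 in Tfh2_4e4 against Tfh2_2e4 cells, and 0 to 0 and -0.09 to -0.03 in Tfh2_6e4 against Tfh2_4e4 cells. The low count of 4 came without TfhA_4e4 replicate 1.

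Single genes were tallied only where called in the reported comparison, along with Myc and Rrs1. Of these, 2093 values kept their status, called or not, 171 lost a call, 12 gained one and 5 changed sign. Gains and sign changes of other genes are outside this tally, such as Nop58 in TfhA_4e4 against Tfh2_4e4 cells, at 0.23 without and -0.57 with the covariate. The 5 were Nop58 in TfhA_4e4 against Tfh5_4e4 cells, at -0.40 with the covariate, and Myc in 4 fits. Myc was at 0.30 in Tfh5_4e4 against Tfh2_4e4 cells and 0.12 in Tfh2_6e4 against Tfh2_4e4 cells in replicates 1 to 3, and at 0.027 and 0.029 in these without Tfh2_4e4 replicate 4. Without single libraries Myc ran from -0.55 to 0.027 in Tfh5_4e4 against Tfh2_4e4 cells and from -0.47 to 0.029 in Tfh2_6e4 against Tfh2_4e4 cells.

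The replicate numbers did not pair the libraries: 15 of 80 same-numbered pairs had a correlation of their deviations above 0.1, and for 16 of 34 the best correlation was with a library of the same number. With the replicate block the counts were 10 in TfhA_4e4 against Tfh2_4e4 cells, 15 in TfhA_4e4 against Tfh5_4e4 cells, 25 for the slope and 10 in Tfh2_4e4 against Tfh2_2e4 cells. Other scalings moved the median of all genes by at most 0.04 on the log2 scale. Depth limits Fbl, Noc3l, Polr1b and Myc most, with lowest library counts of 9, 16, 22 and 24.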
